A study of Homo sapiens with 8 samples.

Results

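The genes described here are 43 genes of homologous recombination and of the Fanconi anemia pathway, out of 19389 protein-coding genes annotated on chromosomes 1 to 22, X and Y. They were taken as a named list, and the peaks counted for each gene were those that overlapped its annotated span or the 4 kb after its 3′ end by at least 1 bp. The peaks came from poly(A) 3′-sequencing, in which reverse transcription starts at a poly(A) tract, so that a read marks where a transcript ends. The libraries were made from Kelly cells, a MYCN-amplified human neuroblastoma line, and from the Kelly E9R subline, which acquired a point mutation of CDK12 during selection with a related compound; the mutation changes the cysteine to which THZ531 attaches. THZ531 blocks CDK12 and CDK13, kinases of the RNA polymerase tail, by a covalent bond. Both lines received either DMSO or THZ531 (400 nM in the labels) for 6 h, which gives 4 groups of 2 libraries and 8 libraries in all; the study's methods give another dose for Kelly cells.

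The reads of all 8 libraries were merged before peaks were called, and the deposited list analysed here holds 153624 peaks with 0 columns of values per library. The depth of each library is therefore unknown, no value has a replicate, and neither THZ531 with DMSO nor Kelly with Kelly E9R can be compared. Every value below describes the pooled libraries, and intervals on shares are 95% Wilson intervals that cover counting error only. All 12 markers of adrenergic neuroblastoma that were checked had a peak at a transcript end, with pileups of 29 to 121, and 4 of 13 markers of other cell types had one, with pileups of 6 to 16. The pileup is the number of overlapping fragments at the summit of a peak, each read extended to 100 bp. No pileup was above 200, the number of positions times strands from which fragments can cover a base, so a pileup is not a transcript level.

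Homologous recombination repairs double-strand breaks by copying an intact sister sequence. Nucleases first resect the broken ends, mediators such as BRCA2 then load a recombinase on the single strand, and helicases and nucleases finally take apart the joint molecules. The Fanconi anemia pathway clears crosslinks between DNA strands: a core ubiquitin ligase modifies the pair FANCD2 and FANCI, and nucleases then cut around the crosslink. Several of these genes are long and made of many exons, and a transcript that is cleaved and polyadenylated inside an intron loses the exons that follow.

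The sequences below show what was found at the 3′ ends of peaks in these genes, in the direction of the gene. The first set holds, for 7 functional classes, the intronic peak with the highest −log10 q that has a polyadenylation motif in the 100 bp before its 3′ end, no A-rich sequence in the 50 bp after it, and no overlap with another gene. Capitals mark the motif, and each sequence runs to 20 bases past the 3′ end of the peak. The search for A-rich sequence began after that end. In RAD51B and FANCD2 a run of A crosses it, and whether those peaks mark transcript ends was not tested. All coordinates are on GRCh38 and counted from 1.
FANCB, core complex, intron 3 of 9, chrX:14862962-14863081 (−): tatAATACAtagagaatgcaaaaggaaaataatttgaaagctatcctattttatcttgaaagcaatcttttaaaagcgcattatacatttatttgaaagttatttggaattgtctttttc
DNA2, end resection, intron 10 of 20, chr10:68436544-68436612 (−): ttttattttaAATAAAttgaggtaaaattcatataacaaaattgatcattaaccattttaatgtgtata
RAD51B, recombinase paralog, intron 7 of 10, chr14:68247232-68247287 (+): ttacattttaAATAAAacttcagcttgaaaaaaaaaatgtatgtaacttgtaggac
RAD52, mediator, intron 1 of 11, chr12:949020-949068 (−): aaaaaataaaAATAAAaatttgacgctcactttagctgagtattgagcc
FAN1, crosslink nuclease, intron 10 of 14, chr15:30928372-30928430 (+): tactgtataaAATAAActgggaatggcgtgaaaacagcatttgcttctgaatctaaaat
FANCD2, monoubiquitinated by the core complex, intron 18 of 43, chr3:10053542-10053583 (+): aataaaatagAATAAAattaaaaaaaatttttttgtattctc
HELQ, alternative repair, intron 2 of 17, chr4:83451849-83451895 (−): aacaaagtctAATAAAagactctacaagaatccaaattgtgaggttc

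The second set shows the contrast. The 2 peaks below are the A-rich intronic peaks with the highest −log10 q in BARD1 and BLM, with the run of A that follows the 3′ end in capitals. They were chosen after their values had been seen.
BARD1, A-rich, intron 7 of 10, chr2:214751115-214751224 (−): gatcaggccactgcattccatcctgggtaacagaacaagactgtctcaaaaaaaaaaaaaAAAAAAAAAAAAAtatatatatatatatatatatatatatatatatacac
BLM, A-rich, intron 1 of 21, chr15:90727831-90727940 (+): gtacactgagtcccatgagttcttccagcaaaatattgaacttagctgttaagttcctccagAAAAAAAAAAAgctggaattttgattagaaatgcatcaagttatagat
The third set gives 30 bases around the motif at annotated transcript ends: the usual ends of BRCA1, BARD1 and BLM, and early ends of FANCA and RAD51C that are described further on.
BRCA1, end, chr17:43044293-43044322 (−): caAATAAActtggtagcaaacacttccacc
BARD1, end, chr2:214725637-214725666 (−): taAATAAAtattgagaagttgtcttcgttt
BLM, end, chr15:90816144-90816173 (+): tgAATAAAaatatgataaaaccatgtgaga
FANCA, early end, chr16:89798352-89798381 (−): tgAATAAAgcactgtgtgatttcctgaatg
RAD51C, early end, chr17:58695361-58695390 (+): ttGATAAAtgtatgcaattattctgatgtg
The third highest −log10 q of an intronic peak was in RMI2 (chr16:11254404-11254536) and fell in the window of SOCS1, a suppressor of cytokine signalling on the opposite strand. Of all 422 intronic peaks in these genes, 163 had both a motif and A-rich sequence, 152 A-rich sequence only, 77 a motif only and 30 neither.

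Nearly all of the genes had a peak at an annotated transcript end, but intronic peaks were the largest class. The 43 genes span 3.291 kb (FANCF) to 910.44 kb (RAD51B), with a median of 73.3 kb, and 646 peaks were retained for them after removal of 28 that lacked a motif and were followed by a long A stretch in the genome. Of these, 77 overlapped a transcript end (200 bp before to 600 bp after it), 124 another part of an exon, 422 an intron, and 23 the sequence after the gene. A transcript end peak was found in 40 of the 43 genes, or 93.0% (81.4 to 97.6%), and in 64.5% of all protein-coding genes. The 3 genes without one were GEN1, WRN and FANCF. Among the 40 genes with an intron and a transcript end peak, 36 (90%) had at least 1 intronic peak, against 77.8% of all protein-coding genes with both. These genes were also longer than the rest, with a median of 74.4 kb against 34.1 kb, which touches every such share, so each gene was next set beside genes of its own length.

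Beside genes of similar length, the counts of all intronic peaks of the list lay near the middle, and those of intronic peaks with a motif lay higher. For each gene the comparison was with the 200 protein-coding genes nearest in span that have an intron and a transcript end peak, and a rank of 50% means a count at their middle. Of the 40 genes with a transcript end peak, 19 (47.5%, interval 32.9 to 62.5%) had more intronic peaks than the median of their length neighbours, 12 had fewer and 9 the same number, and 39.8% of all protein-coding genes with an intron and a transcript end peak lay above it. Their median rank was 51.5%, and that of other genes 46.5%. They held 407 intronic peaks in all, and the medians of their neighbours add up to 349. RAD51B alone gave 76 against 49. For other genes the same totals were 82470 and 80043.5. Per 100 kb of intron the 407 peaks are 10.7, or 11.4 without RAD51B, and other genes held 9.37. Because peaks carry no strand, a peak in 2 overlapping genes was counted for both: 93 of the 422 intronic peaks (22%) also lay in the window of another gene, and 20.5% of those in other genes did. With only the peaks of no other gene's window, 18 of the 30 genes that then had a transcript end peak were above the median. That is 60%, against 39.5% of other genes, and the median ranks were 62.5% and 47.5%. With only the intronic peaks that have a motif, 24 of the 40 genes (60%) were above the median and 8 below it, against 36% above it among other genes, and the median ranks were 62.1% and 46.5%. With the further condition of no A-rich sequence, 16 of the 40 (40%) were above it, against 30.9% of other genes. The median ranks were then 51.1% and 45.75%. A rank of at least 90% was reached by 4 of the 40 genes (10%), XRCC3, FANCA, DNA2 and BRCA1, and by 9.82% of all such genes.

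**Figure D1:**
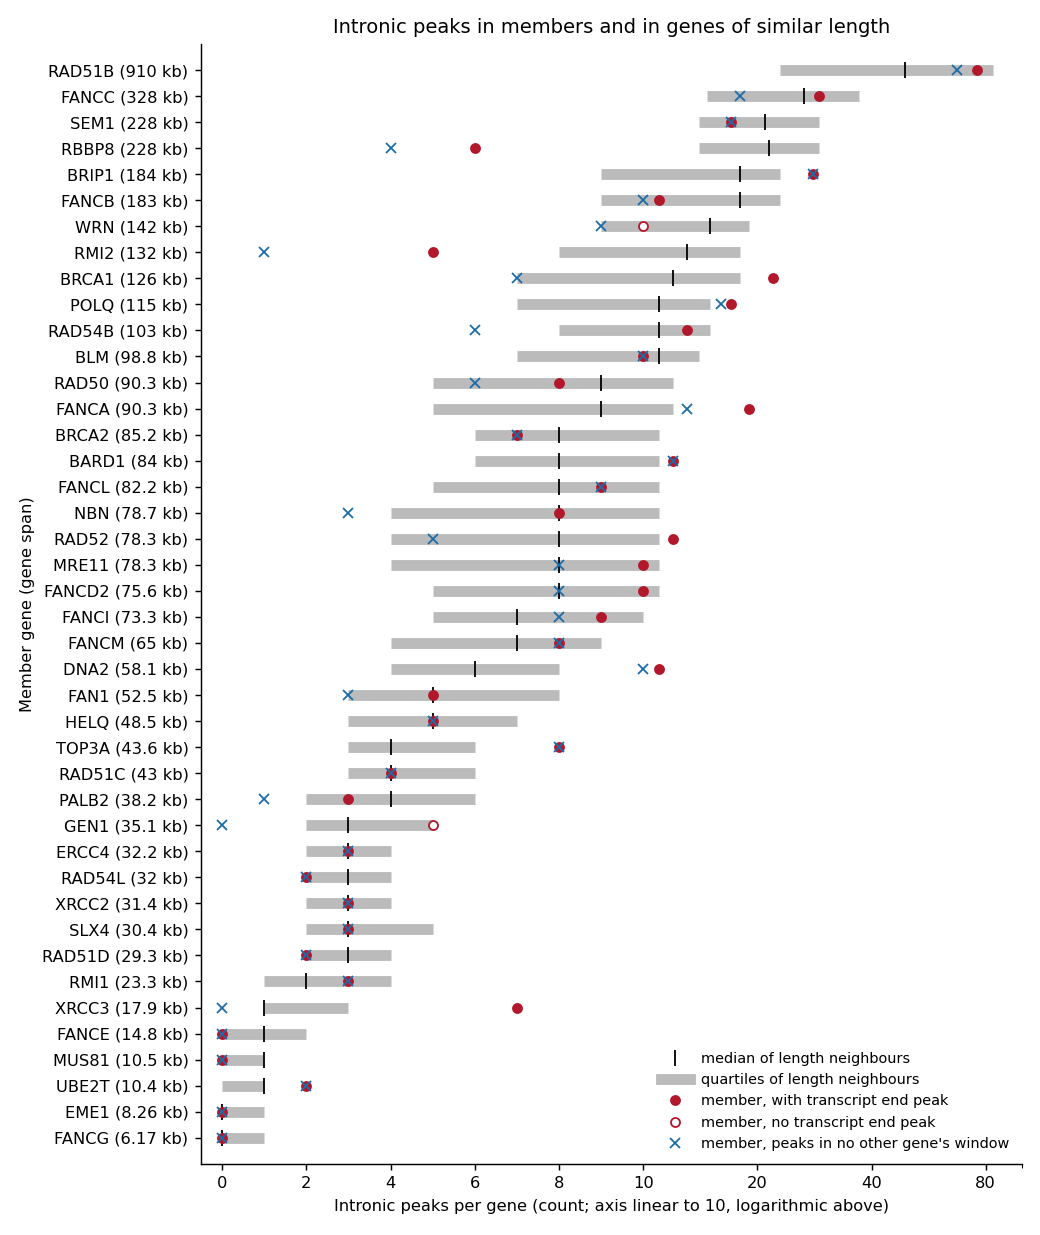
Intronic peaks (x axis, count, linear to 10 and logarithmic above) of the 42 genes with an intron, ordered by gene span (y axis, kb): filled circles have a transcript end peak and open circles have none, crosses count only peaks in no other gene's window, ticks are the median and grey bars the quartiles of the 200 length neighbours. RBBP8 (6 peaks) and RMI2 (5) lie left of the grey bars, while, among others, XRCC3 (7), FANCA (19), DNA2 (11), BRCA1 (22) and TOP3A (8) lie right of them, and the crosses of XRCC3 and BRCA1 fall to 0 and 7.

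Among the mediators of strand exchange, which bring the recombinase to the broken end, all 7 genes had transcript end and intronic peaks, and 4 lay above and 3 below the median of their length neighbours. BRCA1, the ubiquitin ligase that starts this step, held 22 intronic peaks against a median of 12 in its neighbours (quartiles 7 to 18), a rank of 91.75%. Their pileups ran from 5 to 33 with a median of 12.5. Of the 22 peaks, 13 lay before the start of the canonical transcript, in introns of longer annotated transcripts, and all 13 were shared with other genes, among them the long noncoding gene NBR2. Of the 9 peaks inside the canonical transcript 7 were in no other gene's window, and they were spread along it, with the 9 peaks in 7 different introns. The 2 transcript end peaks of BRCA1 had pileups of 26 and 24, so that the strongest intronic peak (33) stood above them. That intronic peak lies before the canonical start in the window of NBR2. The highest pileup of an unshared intronic peak was 18, below both ends.

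BARD1, the obligate partner of BRCA1, held 12 intronic peaks against a median of 8 (quartiles 6 to 11; rank 82.5%). None was shared with another gene. Their pileups were 5 to 19, with a median of 7, and 11 of the 12 were A-rich; 1 had a motif without A-rich sequence. The strongest, in intron 7 of 10 at chr2:214751165-214751278, lies after 71.9% of the coding sequence; its fold enrichment over the local background was 15.5 and its −log10 q 25.4. The 2 transcript end peaks of BARD1 had pileups of 14 and 11, both lower than that intronic peak at 19.

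BRIP1, the helicase FANCJ that binds BRCA1, held 28 intronic peaks against a median of 18 (rank 88.75%), all 28 in no other gene's window and 7 of them in intron 17. RAD52, an annealing factor, held 12 against 8 (rank 84%), of which 5 were unshared. The other mediators lay below their neighbours. BRCA2, which loads the recombinase, held 7 against 8, PALB2, which links it to BRCA1, 3 against 4, and SEM1, a small acidic protein bound to BRCA2, 17 against 21. Of the 17 intronic peaks of SEM1 only 3 fell inside its canonical transcript.

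The recombinase paralogs, which form complexes that help the filament assemble, held between 2 and 76 intronic peaks. RAD51B held 76 intronic peaks, 18.0% of the 422, against a median of 49 (quartiles 23 to 83.5; rank 70%), and 41 of them lay in intron 7, which is 405 kb long. Of the 76, 68 were A-rich. The highest intronic pileup of RAD51B was 17 and its transcript end peaks reached 8, the lowest among the 40 genes. XRCC3 held 7 against a median of 1 (quartiles 1 to 3), above every neighbour (rank 100%). All 7 lay in the window of KLC1, a kinesin light chain gene on the opposite strand, so they cannot be told apart from peaks of KLC1. The strongest 4 of them, with pileups of 26, 17, 16 and 14, had a motif without A-rich sequence. RAD51C held 4 against 4, RAD51D 2 against 3 and XRCC2 3 against 3. The translocases, motors that remodel the filament, held 2 (RAD54L, median 3) and 13 (RAD54B, median 11).

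Of the 5 genes for end resection, DNA2 stood above and RBBP8 below the rest. DNA2, a nuclease and helicase for long resection, held 11 intronic peaks against a median of 6 (quartiles 4 to 8; rank 92.75%), 10 of them unshared and 5 with a motif without A-rich sequence. The strongest of them (chr10:68436564-68436683, pileup 27, fold 14.0) lies in intron 10 of 20, after 51.8% of the coding sequence, at the end of an annotated transcript outside the basic set, and its AATAAA starts 39 bases before the 3′ end of the peak. The transcript end peak of DNA2 had a pileup of 25. RBBP8, which encodes the resection factor CtIP, held 6 intronic peaks against a median of 21.5 (quartiles 14 to 29; rank 8.75%), the lowest rank of the list. Its annotated span is 228 kb, while 4 of the 6 peaks lay inside its canonical transcript of 93.2 kb. The subunits of the MRN complex, which senses broken ends, held 10 (MRE11), 8 (RAD50) and 8 (NBN), against medians of 8, 9 and 8.

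Among the junction nucleases, MUS81 and its partner EME1 are short genes and held 0 intronic peaks, with neighbour medians of 1 and 0. SLX4, the scaffold of this group, held 3 against 3. GEN1, a Holliday junction resolvase, held 5 against 3, all 5 in the window of SMC6 on the opposite strand. Its 6 exonic peaks, also in that window, had pileups of 13 to 25, and 5 of them lay after the coding sequence but before the annotated end windows, where no peak was found.

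Among the helicases and dissolution factors, which separate joint molecules, BLM held 10 intronic peaks against a median of 11 (quartiles 7 to 14; rank 46.5%). None of the 10 was shared, 9 were A-rich, and 6 lay in intron 1. Their pileups were 5 to 17 with a median of 9, and its 2 transcript end peaks had 34 and 14. The end peak at 34 was A-rich and lay in the window of a noncoding gene on the opposite strand too. The partners of BLM differed from each other. TOP3A, the topoisomerase, held 8 against 4 (rank 89.75%), all unshared and 7 of them A-rich, RMI1 3 against 2, and RMI2 5 against 13 (rank 13.5%). The annotated span of RMI2 is 132 kb, and all 5 of its intronic peaks lay outside its 6.302 kb canonical transcript. WRN, the Werner syndrome helicase, held 10 against 15 (rank 29.25%) and 10 exonic peaks. Of its exonic peaks 3 lay after the coding sequence, with pileups of 10, 17 and 12, and none reached an annotated end window.

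In the Fanconi core complex and its conjugating enzyme UBE2T, 5 of the 8 genes with a transcript end peak lay above the median of their neighbours, 2 below and 1 level with it. FANCA held 19 intronic peaks against a median of 9 (quartiles 5 to 12; rank 98.5%). The 13 peaks in no other gene's window were still above that upper quartile, and the other 6 lay in the window of ZNF276, which overlaps the 3′ part of FANCA on the opposite strand. The one of the 13 with the highest −log10 q (chr16:89769575-89769766, pileup 23, −log10 q 25.5) lies in intron 26 of 42 at the end of an annotated transcript outside the basic set. FANCB held 11 against 18 (rank 33%), and one of them had the highest −log10 q of the intronic peaks in the 43 genes (chrX:14862982-14863158, pileup 33, fold 18.0, −log10 q 36.2). It lies in intron 3 of 9, after 36.9% of the coding sequence; its motif is the weak AATACA, 97 bases before the 3′ end, and the transcript end peaks of FANCB reached 17. FANCC held 29 against 26.5, FANCL, the ligase subunit, 9 against 8, FANCM, the translocase that anchors the complex, 8 against 7, and UBE2T 2 against 1. FANCE, FANCG and the intronless FANCF are short genes with 0 intronic peaks, and FANCE ranked at 14.75%. FANCF had 2 exonic peaks, with pileups of 20 and 19, both with a motif without A-rich sequence and both after its coding sequence.

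Both genes of the monoubiquitinated pair lay above their neighbours, FANCD2 with 10 against 8 and FANCI with 9 against 7. The crosslink nucleases were level with them, FAN1 with 5 against 5 and ERCC4, which encodes XPF, with 3 against 3. Of the genes of alternative repair, HELQ held 5 against 5 and POLQ, the polymerase of end joining by short homology, 17 against 11 (rank 86.25%), with 15 of its 17 peaks A-rich.

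The plot of peaks along 6 of these genes shows how differently they were placed. In BRCA1 the strongest intronic peaks stood before the canonical start, in BLM they stood in the first intron, and in FANCA and DNA2 they were spread over many introns, 11 of 42 in FANCA and 8 of 20 in DNA2.

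**Figure D2:**
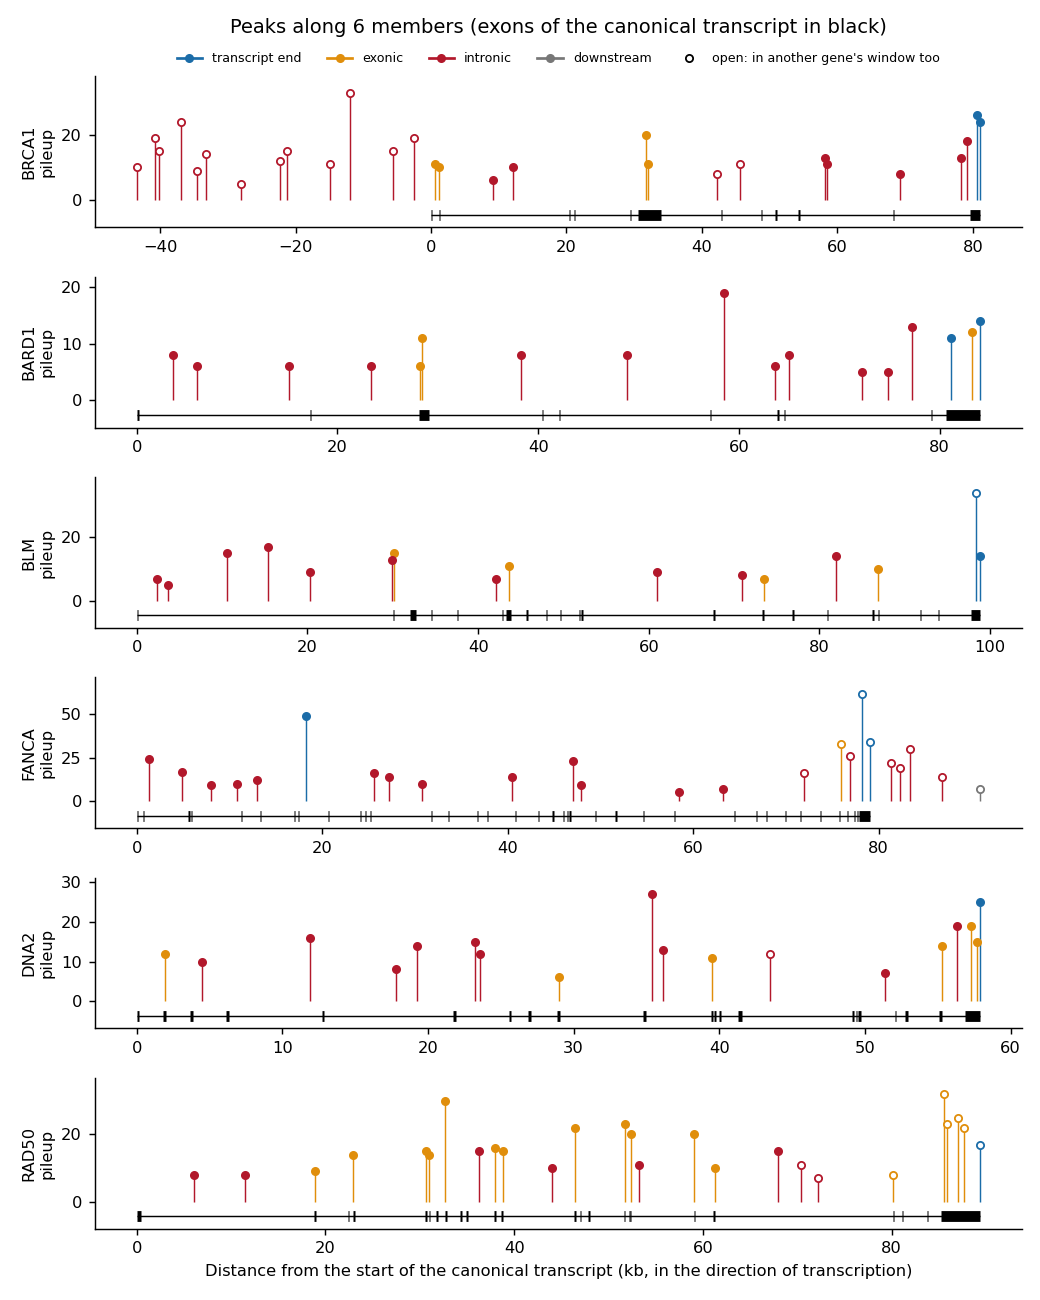
Retained peaks along BRCA1, BARD1, BLM, FANCA, DNA2 and RAD50: x axis, distance from the canonical start in kb in the direction of transcription; y axis, pileup; colour, class of peak; open circles, peaks in another gene's window too; black boxes, exons of the canonical transcript. All 13 BRCA1 peaks left of 0 are open, 6 BLM peaks stand in the first intron, and 17 exonic peaks are drawn along RAD50.

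First introns held a smaller share of the intronic peaks here than in other genes, and a smaller share came early in the coding sequence. Of the 337 intronic peaks inside introns of the canonical transcripts, 31 (9.20%, interval 6.56 to 12.8%) lay in the first intron, against 26.9% in other genes with an intron and a transcript end peak. First introns also make up less of the intron sequence of these genes, 9.88% against 24.9%, with a median of 2.32 kb against 4.05 kb, and the genes have a median of 14 introns against 8. Per 100 kb of first intron the counts were 10.8 and 10.5 peaks, and per 100 kb of later introns 11.7 and 9.43. The part of either in the share was not tested. Of the intronic peaks, 49.1% (44.3 to 53.8%) came before 50% of the coding sequence, against 69.4% in other genes. Outside the canonical transcript lay 85 of the 422 (20.1%), in 10 genes, against 10.8% in other genes. These 85 are included in the share by coding sequence and not in the 337.

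The sequence around intronic peaks was like that of intronic peaks elsewhere. The 12 motifs searched were AATAAA and its variants at the first base (CATAAA or GATAAA or TATAAA), at the second (ATTAAA or ACTAAA or AGTAAA), at the third (AAGAAA), at the fourth (AATGAA) and at the fifth (AATAGA or AATACA or AATATA), on the strand of the gene and on the opposite strand. Any of them stood within 100 bp before the 3′ end in 56.9% of the 422 intronic peaks, in 37.2% on the opposite strand of the same peaks, and in 54.3% and 36.9% of intronic peaks in other genes. A-rich sequence (a run of 6 A, or 7 A in 10 bases) followed 74.6% of them, 18.7% on the opposite strand, and 75.1% in other genes. Oligo(dT) can prime on such genomic A tracts, and whether a given A-rich peak marks a transcript end was not tested. A motif without A-rich sequence was found at 77 intronic peaks in 29 of the genes, 18.2% (14.9 to 22.2%) against 17.4% in other genes. The count of such peaks per 100 kb of intron was 2.0 against 1.59. At least 1 such peak was held by 28 of the 40 genes with a transcript end peak (70%) and by 48.9% of all protein-coding genes with an intron and a transcript end peak, again without regard to length.

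A main motif at the usual distance was more frequent at transcript end peaks than at A-rich intronic peaks. AATAAA or ATTAAA started 15 to 30 bases before the 3′ end, the usual distance, in 42.9% (32.4 to 54.0%) of the 77 transcript end peaks and in 5.19% on their opposite strand. It did so in 54.5% (43.5 to 65.2%) of the 77 intronic peaks with a motif without A-rich sequence, a group that is defined in part by that motif, with 11.7% on the opposite strand. Among the 315 A-rich intronic peaks it was 8.89% (6.22 to 12.5%), with 3.17% on the opposite strand. Other genes gave 47.9%, 56.6% and 8.12% for the same 3 groups. An annotated transcript outside the basic set ended at 36 intronic peaks (8.53%, interval 6.23 to 11.6%), in 21 genes, against 6.25% in other genes.

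**Figure D3:**
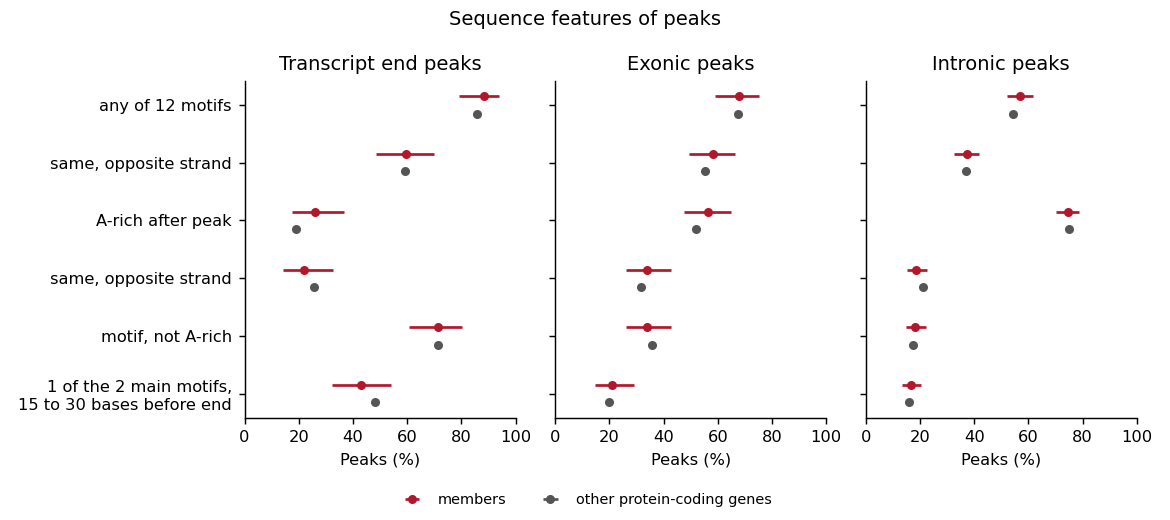
Share of peaks (x axis, %) with each sequence feature, for transcript end, exonic and intronic peaks of the 43 genes and of other protein-coding genes; bars are 95% Wilson intervals, and the main motifs of the lowest row are AATAAA and ATTAAA. Intronic peaks have A-rich sequence in 74.6% and 75.1% of cases, transcript end peaks in 26% and 19.2%, and the intervals of the 43 genes include the values of other genes for the intronic peaks shown.

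Transcript end peaks were of ordinary height, and more genes had several. The highest transcript end pileup per gene had a median of 26 (quartiles 17.75 to 35.25) against 22 (15 to 31) in other genes. More than 1 transcript end peak was found in 21 of the 40 genes (52.5%) against 38.5% of other genes, a comparison made without regard to length. The highest values were those of MUS81 (68), RAD54L (65), FANCA (62), FANCI (62) and RAD51C (47). The MUS81 peak lies in the window of EFEMP2 on the opposite strand and has no motif, the RAD54L peak lies in that of LRRC41, the FANCA peak in that of ZNF276 and the FANCI peak in that of POLG, so only the RAD51C peaks were in no other gene's window. The strongest intronic peak stood above the strongest transcript end peak in 9 of 40 genes (22.5%, interval 12.3 to 37.5%), against 17.2% of all protein-coding genes with an intron and a transcript end peak. They were FANCB (33 against 17), BRCA1 (33 against 26), RMI2 (25 against 14), RAD51B (17 against 8), FANCM (22 against 16), BARD1 (19 against 14), RMI1 (22 against 19), ERCC4 (17 against 14) and DNA2 (27 against 25). The BRCA1 peak lies before the canonical start in the window of NBR2, and the highest unshared intronic pileup of BRCA1 was 18. The RMI2 intronic peak with the highest −log10 q lies in the window of SOCS1. The shares of 22.5% and 17.2% are without regard to length.

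**Figure D4:**
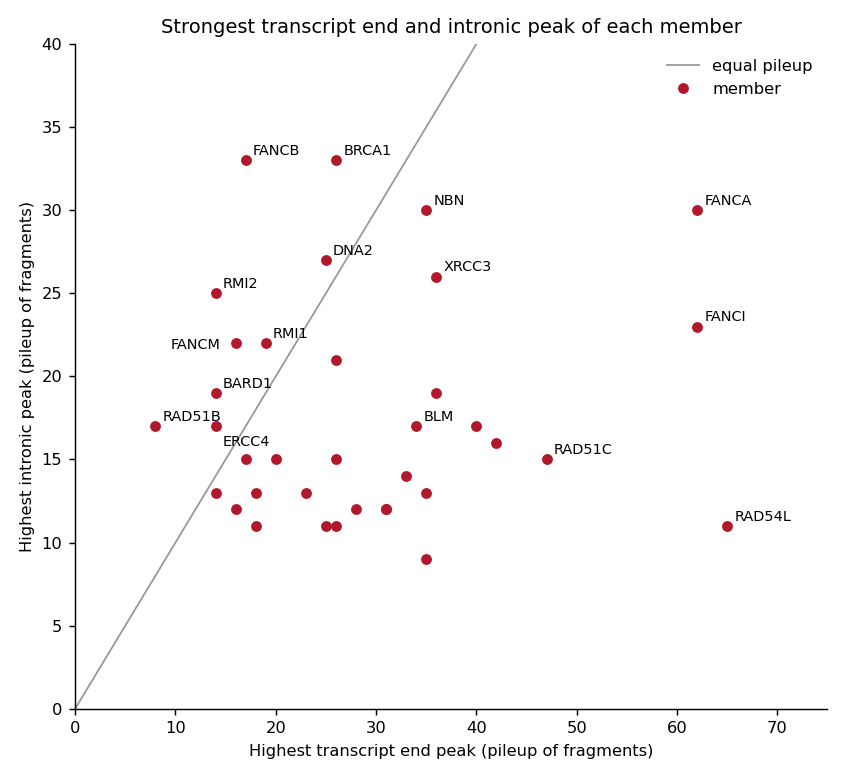
Highest transcript end pileup (x axis) and highest intronic pileup (y axis) of the genes with both kinds of peak; each point is a gene and the grey line marks equal pileups. The 9 labelled genes left of the line have a stronger intronic than transcript end peak, with FANCB at 33 against 17, while RAD54L at 11 against 65 lies farthest right. Peaks that also lie in another gene's window are included.

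Some transcript ends annotated early in the gene carried peaks, mostly in Fanconi genes. Of the 77 transcript end peaks, 13 (16.9%, interval 10.1 to 26.8%) had less than 50% of the canonical coding sequence before them, against 4.89% of transcript end peaks in other genes. They lay in 7 genes: 4 in FANCM, 3 in FANCL, 2 in FANCD2 and 1 each in BRIP1, FANCA, FANCI and RAD51C. Since they end annotated basic transcripts, they were counted as transcript ends and not as intronic peaks. Of the 13, 12 were in no other gene's window, 8 had a motif without A-rich sequence, and 4 were A-rich; 3 of these 4 were in FANCM. The strongest was the FANCA peak at chr16:89798349-89798502, with a pileup of 49, a fold of 26.6 and a −log10 q of 62.2, after 20.5% of the coding sequence and 18.3 kb from the canonical start. Its AATAAA starts 31 bases before the 3′ end. The RAD51C peak at chr17:58695112-58695431 had a pileup of 47 after 35.8% of the coding sequence, above the 2 peaks at the usual ends of RAD51C at 28 and 19. Its GATAAA starts 69 bases before the 3′ end. In FANCL the early peaks had pileups of 20, 11 and 5, all after 48% of the coding sequence, and the 2 peaks at its usual end 26 and 15. In FANCM the 4 early peaks had 10, 9, 7 and 7, and its usual end 16. The number of annotated transcripts decides how many early ends can be counted, and this differs between genes. The 4.89% was also taken without regard to length. Among genes with an intron and a transcript end peak, the median span was 74.4 kb here and 34.1 kb in other genes. The interval counts peaks and not genes, and 4 of the 13 peaks were in FANCM and 3 in FANCL.

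Exonic peaks were more frequent than in genes of similar length in a part of the list. Of the 40 genes, 21 (52.5%, interval 37.5 to 67.1%) had more exonic peaks than the median of their length neighbours, against 37.6% of all protein-coding genes with an intron and a transcript end peak, and the median rank was 65.1% against 43% in other genes. RAD50, the ATPase of the MRN complex, had the most, with 17 against a median of 2 (rank 99.5%). Of these, 13 lay before the end of the coding sequence, with pileups of 8 to 30, and 11 of the 13 were A-rich. The other 4 lay after it, with pileups of 22 to 32; none of those was A-rich and all 4 were shared with the noncoding gene TH2LCRR. FANCD2 held 7 against 2, and DNA2 and RBBP8 6 each, against 1 and 2. The exonic peaks as a whole were A-rich in 56.5% (47.7 to 64.9%) of cases, against 52.1% in other genes. Neighbours were matched on span and not on the number of exons, and these genes have a median of 14 introns against 8. The part of this in the exonic counts was not tested. An overlap of 1 bp made a peak exonic, and 96 in place of 124 were exonic when the summit had to lie in the region.

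Other genes of the same pathways, 36 in number, gave a similar picture. Of these, 34 had a transcript end peak, against 64.5% of all protein-coding genes. Of the 34, 16 had more intronic peaks than the median of their length neighbours, 5 fewer and 13 the same number, with a median rank of 53.75%. Among all protein-coding genes with an intron and a transcript end peak, 39.8% lay above that median. The 34 genes held 214 intronic peaks, 46 of them with a motif without A-rich sequence. At least 1 intronic peak was held by 27 of the 34, and by 77.8% of all protein-coding genes with an intron and a transcript end peak. The other pathway genes are shorter than the 43 genes, with a median of 30.6 kb.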

How the data were processed

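Kelly and Kelly E9R cells were profiled by 3′-sequencing (QuantSeq REV) in 8 libraries. Per the study's methods and the submitters' processing notes, the authors trimmed reads, mapped them with STAR 2.5.1b to GRCh38 with spike-in sequences, merged the reads of all libraries and called peaks with MACS2 2.1.1 with reads extended to 100 bp. The q threshold and the handling of duplicates are not given in the sources used here. The deposited list gives, per peak, start, end and summit, the ratio of pileup to local background (fold enrichment) and the −log10 p and −log10 q; other processed files were not used here.

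Pileups were recovered from fold and p-value, with a whole number found for 100% of peaks (tolerance 0.001 in −log10 p). Peaks were assigned with GENCODE release 44, in the order transcript end, exon, intron, downstream, on the strand of the gene. A peak with a stretch of 25 A (at most 3 mismatches) in the 50 bp after its 3′ end and no motif was removed. Length neighbours were the 200 non-member genes nearest in span; a rank counts those below plus ties at equal weight above and below. No test was run, since no value per library was used. The genes described in full were BRCA1, BARD1 and BLM, the 5 highest and 5 lowest ranks, genes with no transcript end peak, and the 5 highest transcript end pileups; other genes are given by role. The sequences of 2 peaks chosen by the rule are not reported here. Genes and lists were chosen with earlier results of these data known. Scripts used Python 3.11.15, pandas 2.3.3, NumPy 2.4.6, SciPy 1.17.1 and Matplotlib 3.10.9, and were tested on simulated data.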

Additional observations from a re-analysis of the deposited data

How the results depend on the processing

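The count of genes with a transcript end peak, the count above the median of length neighbours and the median rank moved by less than their limits under the alternatives run. The limits were 1.5-fold for counts and 45.25 to 66.25% for the median rank. The latter is a 95% interval taken from the sorted ranks of the 40 genes. These genes are a fixed list and not replicates, and the range also holds the 46.5% of other genes. The median rank stayed between 45.4% (canonical transcript only) and 64.6% (neighbours without a required transcript end peak), against 46.5% and 57.75% in other genes. With neighbours whose transcript end pileup was within a factor of 2, it was 48.9% against 45.5%, with 18 of 40 genes above the median and 14 below. It was 53.6% against 45.75% when the canonical span was used for matching and counting, an alternative chosen after seeing the data. With a −log10 q of at least 10, intronic peaks dropped to 90 and exonic peaks to 49, because fewer peaks are then counted. The share of intronic peaks with a motif without A-rich sequence was then 23.3%; it was 14.6% with only peaks of no other gene's window, 13.0% with AATAAA and ATTAAA only, and 55.9% when A-rich meant only a stretch of 25 A, against 24%, 15.6%, 12.8% and 52.9% in other genes. Without RAD51B it was 20.2%. Counts of single named genes moved by over 1.5-fold in 20 cases and not in 106, but many of the 106 could not move. Leaving out the 4 kb after genes takes away no intronic peak, and EME1, MUS81, FANCE and FANCF held 0 under every alternative. RBBP8, with the lowest rank, held 10 intronic peaks in place of 6 when the summit had to lie in the region. No paired analysis was possible because the deposited list holds no values per library. The pooled list limits all counts: a peak missing here was not detected at this depth.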
